A study of Drosophila melanogaster with 8 samples.

Results

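Across the small RNA libraries of Drosophila S2 cells, 107 guide arms were present at a trace, each under an average of 10 RPM (RPM, reads per 1e+06 of all small RNA reads). They were chosen by that average: an arm belongs to the set when the highest value of the authors' average over its start positions is under 10 RPM and the tables mark it as mature. Arms of the miR-9, miR-79, miR-4, miR-263 and miR-308 families were left out by name, which removed 2 arms of that level, miR-9a-5p and miR-4-3p. The 107 arms are part of 263 arms in the tables, which include passenger arms. Another 61 guide arms stood at 10 RPM or more, named expressed guides here. The name rule begins with the letters mir-9, and read by its letters alone it would also leave out miR-92a and the miR-9xx series and keep 82 arms. The tables mark as mature the arm with the higher average level summed over its listed starts, which held for 94 of 94 hairpins with both arms listed, so "guide" here is a statement of level and not of function.

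S2 is an established fly line of embryonic, blood-cell-like origin. The study set out to learn whether small RNA lengths depend on Nibbler (Nbr), an exoribonuclease that trims the 3' ends of some fly microRNAs (miRNAs). Its 8 samples are wild-type cells, cells with an nbr knock-out, the knock-out with overexpressed wild-type Nbr, and the knock-out with overexpressed catalytic mutant Nbr, with 2 biological replicates of each. The labels do not say whether the knock-out is 1 clone or how the transgenes are driven. The tables name 8 libraries by number, 81154 to 81161, and 0 of 8 numbers occur in the labels, so no library was given a genotype and no genotypes were compared. Values are given for each library, or as the lowest, median and highest of the 8, and errors cover counting only.

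A miRNA is cut from a hairpin as a short duplex of about the length of a guide, with a 5' end set by the Drosha and Dicer-1 cuts. One strand stays in Argonaute as the guide and the other, the passenger, is mostly lost. Bases 2 to 8 of the guide, the seed, choose its targets, so a start that moves by even a base makes another seed. Fly Argonaute 1 favours guides that begin with U (T in the reads). Many fly miRNAs are known for a narrow place or time: miR-1 in muscle, miR-124 in neurons, let-7 and miR-125 at metamorphosis, the miR-309 cluster in the early embryo, and a large set of young miRNAs in the testis.

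The first 8 bases of a read class show which miRNA seed it could carry, with the seed in capitals. They were copied from the deposited tables. The first set shows low guides whose reads began at the annotated start, with the tables' bases for that start; a read with a mismatch may differ from them.

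let-7-5p: tGAGGTAG
miR-125-5p: tCCCTGAG
miR-124-3p: tAAGGCAC
miR-92a-3p: cATTGCAC
miR-994-5p: cTAAGGAA

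The second set pairs, for 3 arms with reads at 2 starts, the annotated start with the other start, because the move changes the seed. In miR-1-3p and miR-967-3p the other start held more reads, and in miR-315-3p slightly fewer.

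miR-1-3p annotated: tGGAATGT
miR-1-3p, other start: tGTAAAGA
miR-315-3p annotated: cTTTCGAG
miR-315-3p, other start: tTCGAGCA
miR-967-3p annotated: cTTTTCCA
miR-967-3p, other start: tAGGTGTC

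The third set shows arms that begin at or next to an intron's first base, where GT is the usual start of an intron, and a pair of neighbouring starts that differed in mismatches.

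miR-1014-5p: gTATAATG
miR-2501-5p: gTAAGTTT
miR-4943-5p, start at position 21: aATTTTGT
miR-4943-5p, start at position 22: aTTTTGTC

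The libraries held 17145872 to 32958242 small RNA reads, of which 6399941 to 11639214 were miRNA reads. All low guides together held 3319 to 6033 reads per library, a median of 184 RPM (151 to 194) and 0.0506% (0.0427 to 0.0593%) of the reads in all arms. The limit that a count of 0 allows, 3 reads, was worth 0.0910 to 0.175 RPM, and the limit of 10 RPM came to 171 to 330 reads. Of the 107 arms, 61 averaged under 1 RPM, 38 stood from 1 to 5 RPM and 8 above 5 RPM. Every arm had at least 1 read in every library, which is a property of the deposited tables, where no line holds less, and 74 had at least 3 in each. Single arms at the bottom of the set thus rest on a few reads: miR-976-3p had 11 reads over all libraries and miR-10-3p 18.

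The low guides split by where their reads began. Of 106 arms with a matched hairpin, 62 began exactly at the annotated 5' end of a mature miRNA, as did 56 of 60 expressed guides. The other 44 began elsewhere: 13 within 2 nt of an annotated start, 26 at 3 to 10 nt and 5 farther off, with 21 upstream and 23 downstream. By the tables' own start columns those 5 lay within 10 nt of a listed start, and miR-4946-3p exactly on it. The difference between low and expressed guides was not tested, since arms are not replicates and the libraries carry no group.

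Read length differed with the start position. Low guides at the annotated start had a median mean length of 21.8 nt over the 62 arms (20.8 to 23.95), beside 21.9 nt for expressed guides, and 59 of the 62 were most often 21 to 23 nt long. Of the 58 with at least 20 reads, 0 had a mean length under 20 nt. Low guides that began elsewhere had a median of 19.3 nt (18.0 to 24.5), and 24 of 43 with at least 20 reads were under 20 nt, as were 2 of 61 expressed guides. Those 2 were miR-992-5p at 18.2 nt, which also began away from its annotated end, and miR-2c-3p just under the limit. The split held in each library. The pooled reads of annotated-start arms averaged 21.9 nt in the median library (21.65 to 21.98), those that began elsewhere 20.3 nt (20.2 to 20.4), and the ranges did not overlap. Expressed guides averaged 22.3 nt (22.1 to 22.3), above every library's value for either set. The counting SE of a library's mean length was at most 0.0419 nt for low guides.

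**Figure D1:**
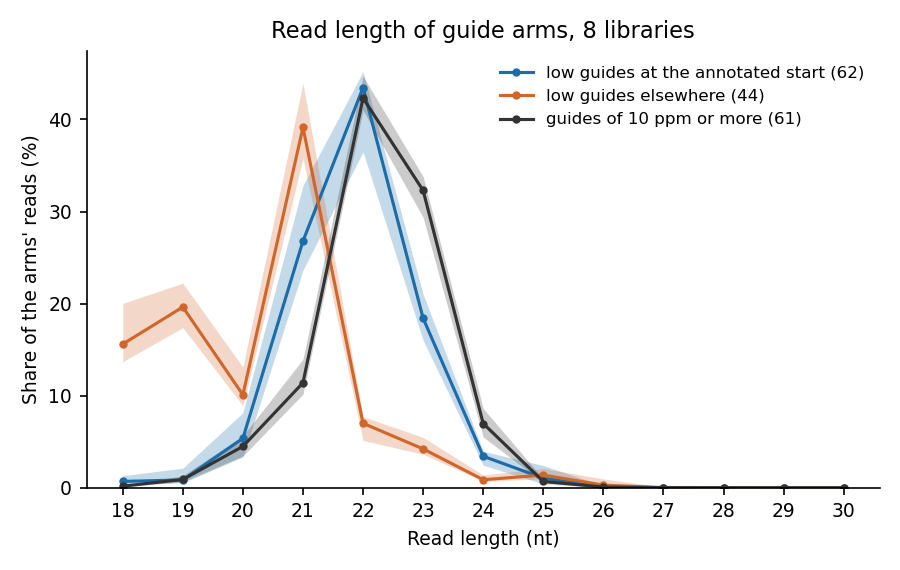
Share of reads (%, vertical axis) at each read length (nt, horizontal axis) for low guides at the annotated start, low guides that began elsewhere and expressed guides; points are the median of 8 libraries and bands run from the lowest to the highest library. The arms that began elsewhere show a peak at 21 nt with 39.1% of reads. They show a second, lower peak at 19 nt with 19.6%, and 10.1% at 20 nt between them. Reads are pooled, so arms with many reads weigh most. With equal weight for each of these arms, not plotted, 18 nt was largest at 30.2%, then 21 nt with 26.1% and 19 nt with 22.8%. The other 2 classes peak at 22 nt.

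The 18 and 19 nt reads, the shortest that size selection to 18 to 30 nt would keep, made up 36.0% (32.8 to 39.1%) of reads from low guides that began elsewhere. They were 1.61% (0.959 to 3.25%) of reads from low guides at the annotated start and 1.09% (0.768 to 1.55%) of those from expressed guides. These shares pool the reads of all arms. With equal weight for each arm, 18 and 19 nt reads made up 1.22 and 1.53% for low guides at the annotated start. For expressed guides they were higher, at 1.74 and 2.08%, and for low guides elsewhere 30.2 and 22.8%. Among the 44 arms that began elsewhere, 11 were most often 18 nt long, 11 most often 19 nt, 3 most often 20 nt, 13 most often 21 nt and 6 longer. The 21 nt arms were sharp, since 10 of the 13 had at least 80% of their reads at that single length. Fly siRNAs cut by Dicer-2 are known to have that length, and what produced these reads was not tested.

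**Figure D2:**
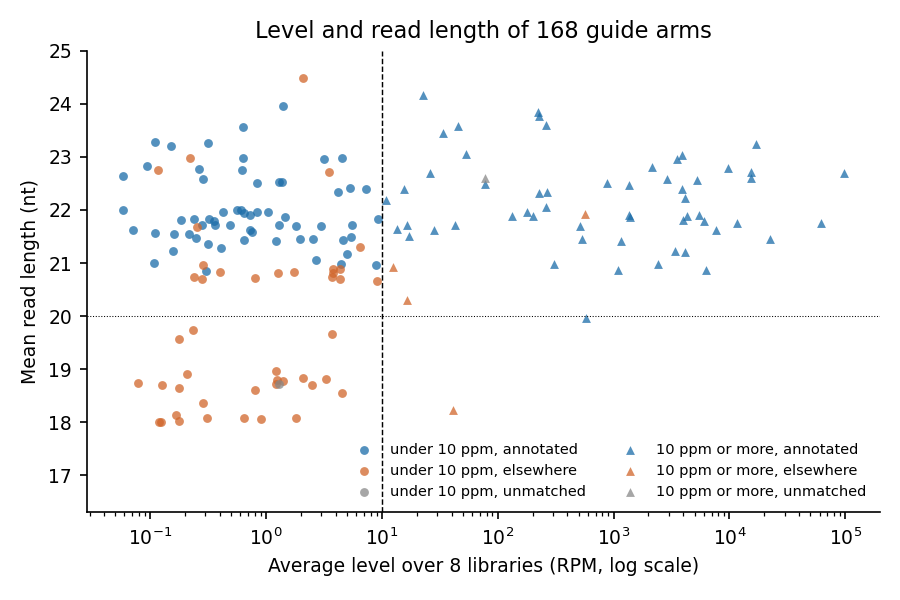
Mean read length (nt, vertical axis) against the average level (RPM, log axis) of 168 guide arms, with circles under 10 RPM and triangles at or above it. Blue marks arms at the annotated start, orange arms that began elsewhere and grey arms with no matched hairpin. The dotted line is 20 nt and the dashed line the 10 RPM limit. Blue circles lie above 20 nt down to the lowest levels, and the circles below 20 nt are orange apart from 1 grey.

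The shortest and longest arms with at least 100 reads show the same split by name. The shortest were miR-974-5p, miR-973-5p, miR-4953-3p, miR-4940-5p and miR-315-3p, with mean lengths of 18.1, 18.1, 18.1, 18.5 and 18.6 nt, and all 5 main starts lay away from the annotated end, though miR-315-3p had slightly more reads at its annotated start, averaging 21.8 nt. miR-974-5p had 94.7% of its reads at 18 nt. At the long end stood miR-2500-5p at 24.5 nt, miR-1010-3p at 23.95 nt, miR-4969-5p at 23.6 nt, miR-2493-3p at 22.98 nt and miR-4939-5p at 22.98 nt, and 4 of these began at the annotated start. miR-2500-5p began 1 nt inside it and was most often 25 nt long (47.8% of 404 reads).

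Of the 15 low guides with reads at 2 starts, 7 had one of them at the annotated end, and in all 7 the reads at the other start were shorter. Mean lengths were 20.8 to 22.7 nt at the annotated starts and 18.0 to 20.8 nt at the others. In miR-4910-5p the difference was slight, with 20.9 nt at the annotated start and 20.8 nt at the other. In 3 of the 7, miR-1-3p, miR-4910-5p and miR-967-3p, the other start held more reads. In miR-315-3p the starts were level, and the other start was taken as its main one for an average of 0.806 against 0.805 RPM. It had 162 reads at the annotated end averaging 21.8 nt and 159 reads 2 nt inside it averaging 18.6 nt. Its opposite arm miR-315-5p, marked as passenger in the tables, held 209 reads at its annotated start with a mean length of 22.4 nt. miR-967-3p had 89 reads of 22.7 nt at the annotated end and 236 reads of 18.97 nt that began 10 nt inside it.

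The opposite arm was listed for 32 of 107 low guides (29.9%) against 57 of 61 expressed guides (93.4%). A listed line holds a read in every library, and the part of level in this share was not tested. The listed share was 29.0% for low guides at the annotated start and 31.8% for those elsewhere. By first base, 62.9% of low guides at the annotated start began with T, 38.6% of those elsewhere, and 75.4% of expressed guides. These shares are descriptions over arms and were not tested.

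Muscle, neuron and glia miRNAs were among the low guides, each under 3 RPM on average. miR-1-3p, the muscle miRNA that flies need for muscle growth, is encoded on chromosome 2L at chr2L:20487441-20487531 (dm6, plus strand) in a noncoding RNA. It stood at 2.16 RPM in the median library (0.883 to 3.13), but those reads began 5 nt inside the annotated end and averaged 18.8 nt. The start that carries the miR-1 seed held 40 reads over all 8 libraries, a median of 0.190 RPM (0.0910 to 0.450), and these averaged 22.1 nt. The level listed for miR-1-3p is that of reads that began at another seed, and the annotated form was near the worth of 3 reads. No line for miR-133, a partner of miR-1 in muscle of other animals, was analysed here.

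miR-124-3p, the best known neuronal miRNA, began at its annotated end and averaged 21.2 nt over 32 reads, with 0.108 RPM in the median library (0.0827 to 0.334). Its libraries 81156 and 81157 had 11 and 8 reads and the other 6 had 2 or 3. miR-137-3p, known as a brain miRNA in mammals, was higher at 0.893 RPM (0.208 to 1.32) and 21.95 nt. Its lowest libraries were 81158 and 81159 with 5 reads each. Of the same list, miR-190-5p and miR-1000-5p were expressed guides. miR-274-5p, a glial miRNA in flies, stood at 0.282 RPM (0.125 to 0.487) and 22.6 nt at its annotated start. miR-10-3p, from the Hox gene region, stood at 0.0788 RPM (0.0519 to 0.206), under the worth of 3 reads in most libraries.

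The early-embryo miR-309 cluster, which in flies helps to clear maternal mRNAs, had 4 low members, and all 4 began at the annotated end. A further arm under 10 RPM from the same noncoding RNA, miR-4-3p, had been left out by name. miR-5-3p stood at 4.35 RPM (2.45 to 5.19), miR-286-3p at 2.93 RPM (2.14 to 4.57), miR-3-3p at 2.89 RPM (1.90 to 4.52) and miR-309-5p at 0.326 RPM (0.175 to 0.453). Their mean lengths were 22.3, 22.96, 21.7 and 21.8 nt, and the cluster's miR-6-3p was an expressed guide. All 6 low members of the miR-310 cluster also began at the annotated end, and together they held 2.83 RPM (2.31 to 4.76). That cluster's miR-992-5p was an expressed guide and began 6 nt inside its annotated end. In the ovary list, miR-994-5p reached 4.83 RPM (3.97 to 7.95) with 21.7 nt reads, and miR-989-3p, which acts in border cell migration, 0.308 RPM (0.117 to 0.538). The third ovary miRNA, miR-318-3p, was an expressed guide.

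**Figure D3:**
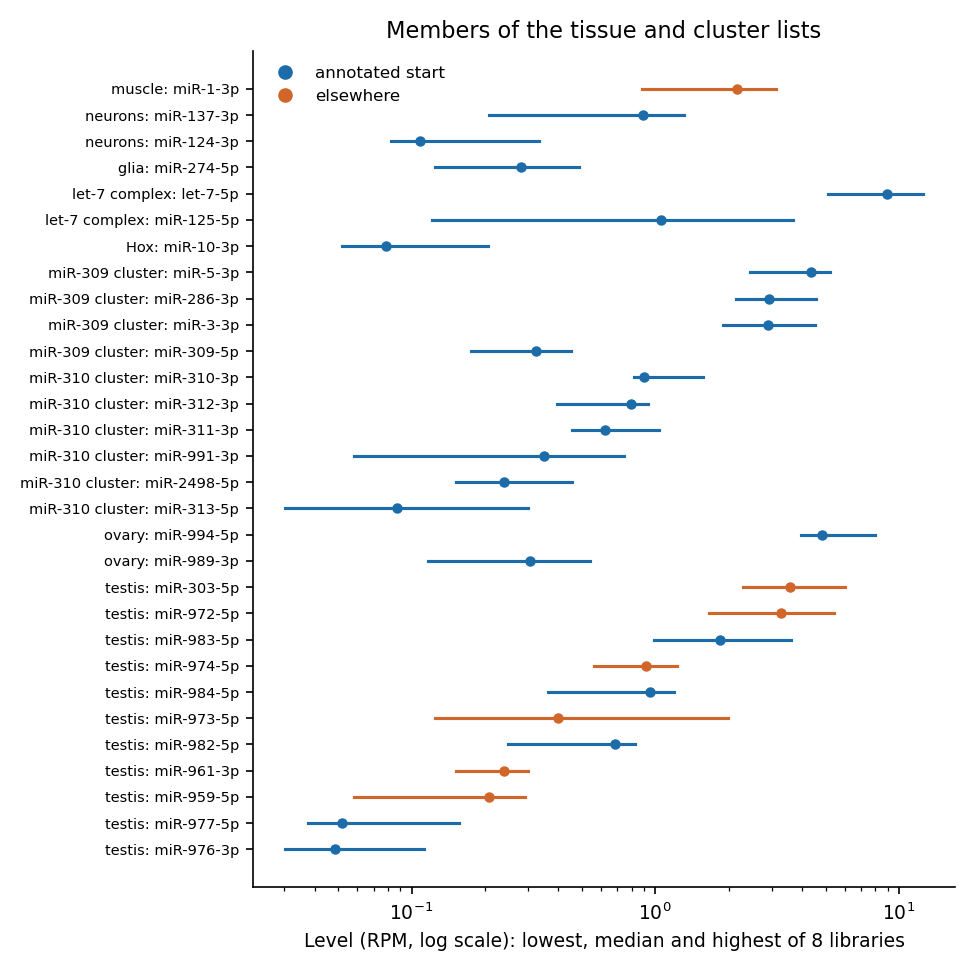
Level (RPM, log axis) of the low guides in the tissue and cluster lists, with a point at the median and a line from the lowest to the highest of 8 libraries. Blue marks arms at the annotated start and orange arms that began elsewhere. The orange arms are miR-1-3p and 6 of the 11 testis arms, and let-7-5p is the highest.

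The testis list was mixed. Of its 11 low guides 5 began at the annotated end, 6 began elsewhere and 5 had a mean length under 20 nt. No testis arm on the list was an expressed guide. The highest were miR-303-5p at 3.58 RPM (2.29 to 6.01), which began 5 nt upstream with 83.4% of reads at 21 nt, and miR-972-5p at 3.29 RPM (1.66 to 5.42), which began 4 nt inside with a mean length of 18.8 nt. miR-983-5p, counted once for its identical loci, was the highest with an annotated start, at 1.84 RPM (0.987 to 3.60) and 21.5 nt. It was followed by miR-984-5p at 0.955 RPM, with 165 reads of 22.5 nt, and miR-982-5p at 0.687 RPM (0.249 to 0.827) and 22.7 nt. The 3 neighbours miR-972, miR-973 and miR-974, from 1 stretch of the X chromosome, all began off the annotated end and averaged under 20 nt. miR-961-3p, miR-959-5p, miR-977-5p and miR-976-3p stood at 0.0486 to 0.240 RPM in the median library. Lines for miR-960, miR-962 to miR-964, miR-975, miR-978 and miR-979 were not analysed here.

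Seeds were shared with guides of 1000 RPM or more in a pair of cases. miR-5-3p has the seed of 8 expressed guides of the miR-2, miR-6, miR-11, miR-13 and miR-308 families, which together averaged 52782 RPM against its own 4.19 RPM. miR-286-3p has the seed of miR-279-3p and miR-996-3p, which together averaged 8240 RPM against 3.15 RPM. Below that level, miR-10-3p shares its seed with miR-1006-3p at 225 RPM, and miR-3-3p with miR-318-3p at 17.2 RPM. A group of 4 low guides, miR-92a-3p, miR-310-3p, miR-311-3p and miR-312-3p, share a seed with each other and with the expressed guide miR-92b-3p at 28.1 RPM. They start with different bases, as C begins miR-92a-3p and T the other 3. miR-31a-5p and miR-31b-5p share all 8 first bases, so reads too short to tell the loci apart could count for either, and their values of 5.22 and 1.28 RPM are uncertain in that respect.

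By place in the annotation, 40 of the 107 low guides lay in an intron on the sense strand, 13 in an exon of a noncoding RNA, 6 in coding sequence, 7 in another part of an mRNA exon, 13 antisense to a gene, 27 between genes and 1 was not matched. Of the 61 expressed guides, 32 lay in a sense intron, 19 in a noncoding RNA exon, 0 in coding sequence, 4 in another part of an mRNA exon, 1 antisense, 4 between genes and 1 was not matched. Coding-sequence arms at the annotated start were miR-4939-5p, miR-4987-3p, miR-4959-5p, miR-4941-5p and miR-4952-5p. The sixth, miR-4971-3p in msl-2, a subunit of the fly dosage compensation complex, began elsewhere and averaged 18.8 nt.

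Mirtrons are hairpins that fill a short intron, so that splicing replaces the Drosha cut. By the annotation 13 of 107 low guides came from such hairpins, and 6 of 61 expressed guides. Of the 13, 8 began past the hairpin's midpoint, and 7 of those 8 at the annotated end. The highest were miR-1009-5p at 7.53 RPM (5.85 to 8.07), miR-1005-5p at 5.08 RPM (3.90 to 5.77) and miR-1013-5p at 4.72 RPM (4.26 to 7.15), whose 5p names come from the tables although their reads lie in the hairpin's second part. Another 4, miR-1014-5p, miR-1016-5p, miR-2500-5p and miR-2501-5p, began at the first or second base of the intron. miR-1014-5p, in salt at chr3R:31753524-31753591 (dm6, minus strand), averaged 20.7 nt. The other 3 were longer, at 22.7, 24.5 and 23.3 nt.

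The tables also give, for each arm, the reads of a class the authors marked tc, which the labels do not define and which is read here as a T-to-C mismatch. Of 102 low guides with at least 20 reads, 12 had a share of 10% or more and 62 had no such read. Among the 61 expressed guides 3 reached 10%, namely miR-4961-5p, miR-4962-5p and miR-13a-3p. The share of all reads, pooled over arms, was 8.54% (6.83 to 10.4%) over the libraries for low guides and 0.218% (0.195 to 0.250%) for expressed guides. By single arms with at least 20 reads, the median share was 0% for low guides and 0.0952% for expressed guides. The higher pooled share of low guides is thus not a trait of most of them. Of the 12, 11 began away from the annotated end, and let-7-5p was the exception. By length, 6 of the 12 were most often 18 or 19 nt and 6 most often 20 or 21 nt. What a mismatch is cannot be read from these tables, which give neither the base nor the position.

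**Figure D4:**
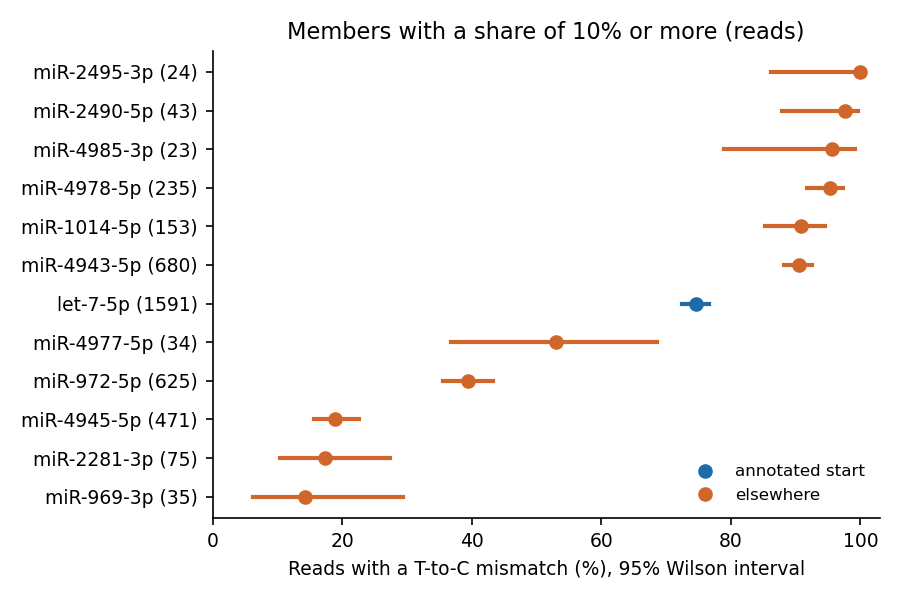
Share of reads with a T-to-C mismatch (%, horizontal axis) in the 12 low guides at 10% or more, summed over 8 libraries, with 95% Wilson intervals and the read number in brackets. The 6 at the top lie above 90%, and let-7-5p, the only one at its annotated start, lies at 74.6%.

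In 6 of the 102 low guides with at least 20 reads, over 90% of reads had a mismatch. Among the 61 expressed guides 2 had a share of 90% or more, and both began away from the annotated end. The low guide miR-2495-3p had a mismatch in 24 of 24 reads (95% Wilson interval 86.2 to 100%), all 18 nt long. miR-2490-5p had 97.7% (87.9 to 99.6%) of 43 reads, miR-4985-3p 95.7% (79.0 to 99.2%) of 23, miR-4978-5p 95.3% (91.8 to 97.4%) of 235, miR-1014-5p 90.8% (85.2 to 94.5%) of 153 and miR-4943-5p 90.6% (88.2 to 92.6%) of 680. Some libraries held only 1 read of miR-2490-5p or of miR-2495-3p. In miR-4943-5p, which had the most reads of the 6, the high share was not from 1 library: it lay between 84.8 and 96.5% in the 8. Its reads that began 1 nt upstream had a share of only 2.32% and averaged 18.2 nt, against 20.7 nt at the main start. Below these came miR-4977-5p at 52.9% (36.7 to 68.5%), miR-972-5p at 39.4% (35.6 to 43.2%), miR-4945-5p at 18.9% (15.6 to 22.7%), miR-2281-3p at 17.3% (10.4 to 27.4%) and miR-969-3p at 14.3% (6.26 to 29.4%). The second start of miR-972-5p, 1 nt downstream with 595 reads against 625, had a share of 77.0%.

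let-7-5p had the start and the length of the miRNA but a mismatch in most of its reads. let-7, the timing miRNA shared from worms to mammals, lies at chr2L:18472034-18472111 (dm6, plus strand) in the noncoding RNA lncRNA:let7C, which also holds miR-125. It stood at 8.90 RPM in the median library (5.11 to 12.5), with 85.5% of 1591 reads at 21 nt and a T-to-C share of 74.6% (72.4 to 76.7%). Mismatched reads averaged 20.9 nt and the others 21.1 nt. By library the share ran from 60.5 to 89.4%. Libraries 81154 to 81157 had shares of 85.7, 82.1, 89.4 and 87.1%, and libraries 81158 to 81161 had 70.0, 71.8, 65.4 and 60.5%.

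Counted apart, the let-7-5p reads without a mismatch varied more than those with one. In the order of library numbers they stood at 1.08, 1.05, 0.55, 0.66, 3.08, 3.43, 4.13 and 4.96 RPM, and the mismatched reads at 6.45, 4.80, 4.61, 4.45, 7.19, 8.73, 7.80 and 7.58 RPM. Both classes were highest in the last 4 libraries and lowest in 81156 and 81157. miR-125-5p, from the same transcript and with 0 mismatched reads of 247, stood at 0.414, 0.487, 0.121, 0.412, 1.62, 2.03, 3.67 and 2.97 RPM. It too was highest in the last 4 libraries and lowest in 81156.

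Levels of the low guides differed between libraries by a median of 2.47-fold between the lowest and the highest, over the 62 arms with at least 100 reads (1.38 to 33.2-fold), against 1.57-fold (1.11 to 7.38-fold) for expressed guides. Counting error is larger for arms of fewer reads, and its part in the span was not tested. A span of over 5-fold was seen in 10 of these 62 low guides and in 1 of 61 expressed guides, and the 5 widest were over 10-fold. miR-92a-3p, from an intron of jigr1 and known in fly neuroblasts, was the highest arm of the set. It stood at 0.786 and 1.12 RPM in libraries 81154 and 81155 and at 12.1, 12.4, 14.1, 12.8, 11.0 and 10.2 RPM in the other 6, with 19 reads in the lowest. No library lay between those 2 ranges.

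miR-1010-3p, a mirtron of SKIP, ran from 0.124 RPM in library 81154 to 4.13 RPM in 81160, with a median of 1.07 RPM and a mean length of 23.95 nt. miR-284-3p, from an mRNA exon of Octbeta2R outside the coding sequence, ran from 0.124 RPM in 81154 to 3.49 RPM in 81160 with a median of 1.85 RPM. It was at 2.95 to 3.49 RPM in libraries 81158 to 81161 and at most 0.741 RPM in the others. The lowest library of each arm held 3 reads, so the size of these spans is uncertain. miR-973-5p, which began 1 nt upstream with 18.1 nt reads, followed another order: it stood at 1.36 and 1.98 RPM in 81160 and 81161 and at 0.125 and 0.156 RPM in 81158 and 81159. Outside the 5 widest, miR-954-5p on chromosome 4 was highest in 81154 and 81155, at 2.11 and 1.69 RPM, and lay at 0.247 to 0.516 RPM in the other 6.

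**Figure D5:**
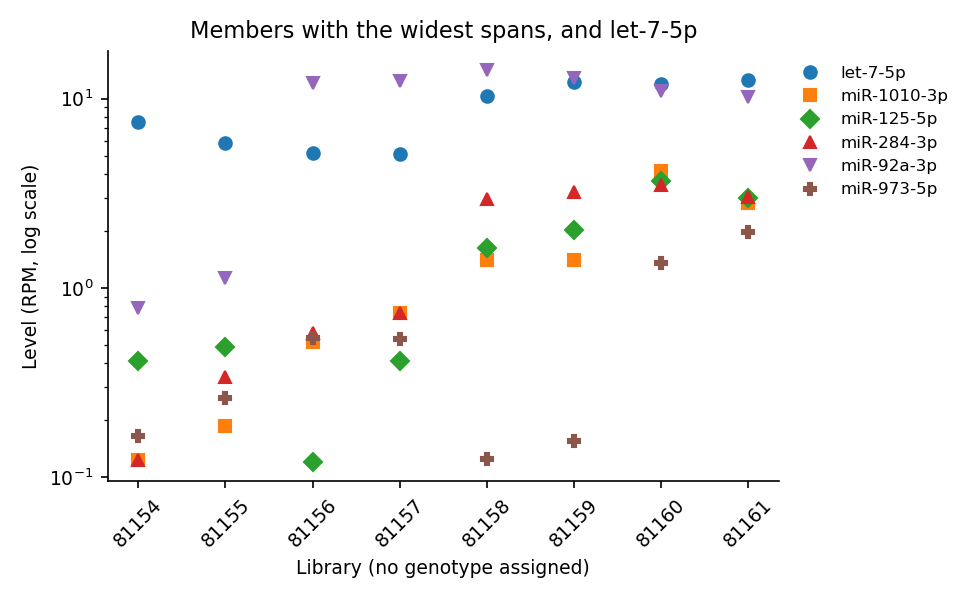
Level (RPM, log axis) in each of the 8 libraries, by library number, of let-7-5p and the 5 low guides with the widest spans among those with at least 100 reads. miR-92a-3p is low in 81154 and 81155, while miR-125-5p, miR-284-3p, miR-1010-3p and let-7-5p are highest in 81158 to 81161.

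Around the limit of 10 RPM that chose the set, the 5 arms just inside averaged 9.30 RPM (miR-92a-3p), 9.08 RPM (miR-4972-5p), 8.82 RPM (let-7-5p), 7.25 RPM (miR-1009-5p) and 6.49 RPM (miR-2497-3p). Just outside stood miR-966-5p at 10.9 RPM, miR-4961-5p at 12.6 RPM, miR-1000-5p at 13.5 RPM, miR-307a-3p at 15.5 RPM and miR-4962-5p at 16.4 RPM. Arms that began elsewhere occur on both sides. miR-4972-5p, in an intron of for, a gene for a cGMP-dependent kinase, began 9 nt inside the annotated end and averaged 20.7 nt with 6.80% mismatched reads. miR-2497-3p began 1 nt inside it and averaged 21.3 nt. miR-92a-3p was under the limit in 2 libraries and over it in the other 6.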

How the data were processed

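Small RNA of S2 cells was sequenced after selection of 18 to 30 nt and 2S rRNA depletion, with 4 random adapter bases, per the labels' protocols. Tools named in the submitters' processing notes are Picard, Bowtie 1.2.2 and cutadapt 1.7.1, with genome build dm6, and their settings are not stated there. The deposited signal values are per arm, start position, length and library, and equal reads per 1e+06 small RNA reads, since the product with the deposited library totals was whole to within 0.001 read in 100% of cases. The deposited score column is the authors' mean over 8 libraries. The deposited library totals are other whole-number values. 

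From these, reads were recovered and summed, mean lengths weighted by reads, and 95% Wilson intervals computed, in Python 3.11.15 (scipy 1.17.1, numpy 2.4.6, matplotlib 3.10.9, pandas 2.3.3). An arm is described at its main start position, and loci with the same mature sequence were counted once. Counts of arms under 20 nt or by T-to-C share needed 20 reads. Medians and ranges of arm mean lengths, most frequent lengths and the plotted mean lengths took every arm. The mature 5' ends planned from RefSeq hairpins were taken instead from the BDGP6 annotation of Ensembl release 115, which matched 174 of 177 hairpins. The length and share calculations were run on simulated reads with values far from the limits, so arms near a limit were not tested. The planned edgeR comparison of genotypes was not run, because no library matches a label. Near-identical loci can share reads.

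The members and lists were chosen with earlier results of these data known. Named arms are the 5 on each side of the limit, members of the tissue lists, those with 20 reads and a T-to-C share of 10% or more, the 5 shortest, 5 longest and 5 with the widest span among those with at least 100 reads, and those sharing a seed with a guide of 1000 RPM or more. Further arms were picked for mention with their values in view.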

Additional observations from a re-analysis of the deposited data

How the results depend on the processing

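No paired analysis was possible because the library numbers carry no replicate number or label, and the genotype comparison with its block was not run. The summed level of 184 RPM became 121 RPM with a limit of 5 RPM (99 arms), 292 RPM with 20 RPM (114 arms), 458 per 1e+06 miRNA reads, and 150 RPM without names beginning mir-9 (82 arms). Leaving out 1 library gave 183 to 185 RPM. The pooled mean length of 21.18 nt became 21.06 nt with equal weights, 21.70 nt for 20 to 26 nt, 21.01 and 21.30 nt with limits of 5 and 20 RPM, 21.08 nt over every start, 21.14 nt without the arm with most reads, and 21.21 nt without mir-9 names, with 21.16 to 21.20 nt over left-out libraries. The value of 21.85 nt at the annotated start became 21.98 nt with equal weights, 21.91 nt for 20 to 26 nt and 21.91 nt with a limit of 5 RPM, with 21.83 to 21.88 nt over left-out libraries. The 20.29 nt elsewhere became 19.81 nt with equal weights, 21.25 nt for 20 to 26 nt, 20.12 and 20.36 nt with limits of 5 and 20 RPM, 20.26 nt by the tables' start columns, 20.23 nt without its largest arm, and 20.45 nt without mir-9 names, with 20.27 to 20.30 nt over left-out libraries. The window drops the 18 and 19 nt reads by construction. The 25 arms under 20 nt became 14 with 100 reads, 41 for 21 nt and 16 without mir-9 names, with 23 to 25 over left-out libraries. The 12 arms with mismatches became 6 with 100 reads, with 10 to 12 over left-out libraries. Start counts were 62 by the annotation, 63 by the tables' columns and 70 within 1 nt. The name reading, start columns and split by start were added after the data were seen. Arms of few reads are the least certain.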

Other observations

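The values of a few low guides fell into separate ranges over the 8 libraries, which carry no group. miR-92a-3p stood at 0.786 and 1.12 RPM in 2 libraries (81154, 81155) and at 10.2 to 14.1 RPM in 6. miR-284-3p stood at 0.124, 0.337, 0.576 and 0.741 RPM in libraries 81154 to 81157 and at 2.95, 3.22, 3.49 and 3.03 RPM in 81158 to 81161. miR-954-5p stood at 2.11 and 1.69 RPM in 81154 and 81155 and at 0.516, 0.247, 0.374, 0.416, 0.272 and 0.467 RPM in the other 6.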
